A study of Arabidopsis thaliana with 2 samples.

Results

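The subject is the family of 14-3-3 protein genes GRF1 to GRF10 of Arabidopsis thaliana. The genes were set against a genome-wide list of peaks, places read as bound by tagged IBH1. IBH1 is a helix-loop-helix protein of the atypical kind, which restrains cell elongation by pairing with growth-promoting relatives. GRF here stands for general regulatory factor and not for the growth-regulating factors of the same symbol. The 10 loci were listed by name, out of 27444 nuclear protein-coding genes, and for each the deposited peaks inside its bounds or within 1000 bp were read. The family was proposed with the peak list in view. It was selected on the peak scores and summit positions of that list, where a peak near GRF1 was among the highest in score, so the values below describe the list and carry no test.

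DNA bound by the tagged protein was recovered by chromatin immunoprecipitation and sequenced (ChIP-seq), from entire Col-0 seedlings 10 days after sowing. One library came from plants that express IBH1 fused to green fluorescent protein (GFP) under the constitutive 35S promoter (line p35S::IBH1-GFP), so IBH1 was present in cells and at levels that its own gene may not give. The other library came from plants with GFP alone under that promoter (line p35S::GFP), as the control, although the library protocol names the control plants as Col-0. Both groups were untreated and grown at 22 °C with light for 16 h a day, and an anti-GFP antibody was used for each. DNA of 3 ChIP experiments was pooled into each library, so every group has 1 library and no value below has a replicate error. The tagged library is titled IBL1, after a related gene, but its line and the series' design give IBH1. The single peak list names no library. It is read as that of the IBH1-GFP plants, and the level of the GFP plants at a peak is not given in it.

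14-3-3 proteins form dimers that hold phosphorylated serine or threonine motifs of other proteins and change their activity, stability or place in the cell. In brassinosteroid signalling they keep the phosphorylated transcription factors BZR1 and BES1 in the cytoplasm, away from their target genes. Several plant members were first named GF14, for G-box factor, after proteins found in a complex on that DNA motif. By sequence the family falls into a non-epsilon and an epsilon group. GRF1 to GRF8 belong to the non-epsilon group, and GRF9 and GRF10 to the epsilon group.

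Summits, the positions of greatest fragment overlap within a peak, lay inside or within 1000 bp of 3 of the 10 genes. These were GRF1 (AT4G09000, the chi isoform), GRF4 (AT1G35160, phi, listed in the gene table as GF14 PHI) and GRF8 (AT5G65430, kappa). Among all protein-coding genes 12.7% had such a summit, and among the 7368 genes whose bounds span as much as those of the family (1810 to 2685 bp) 13.4% had one. The 3 genes each held a summit inside their bounds as well, against 7.05% of all genes and 7.56% of those of similar span. GRF1 and GRF8 each had 2 summits within 1000 bp, against 1.04% of all genes and 1.24% of those of similar span. The second summit of GRF8 was 715 bp from it but 25 bp from the neighbour AT5G65440. The GRF8 peaks were 241 bp apart, less than the 500 bp used for merging in an alternative setting. The second GRF1 peak scored 63.54, below the median of 72.83 over all peaks. The other 7 family members had no listed summit within 1000 bp. A share of so few genes, chosen with GRF1 known, is a count and not a measure of the family's preference.

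**Figure D1:**
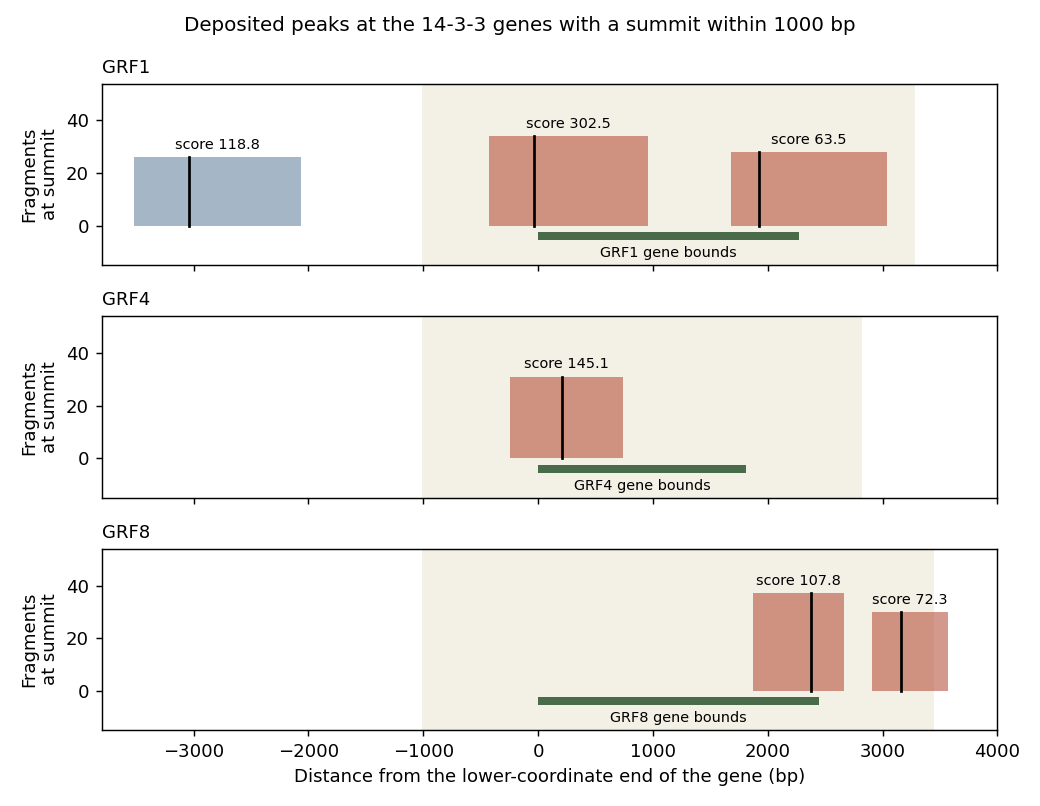
Deposited peaks around GRF1, GRF4 and GRF8. The x axis is the distance in bp from the end of the gene with the lower coordinate, each block spans a peak, its height is the number of fragments stacked at the summit (y axis), the black line marks the summit, the green bar the gene and the pale band the gene with 1000 bp on either side. Red blocks have their summit in the band, and the blue block has its summit 3043 bp from GRF1.

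GRF1 had the highest score of the family. Its main peak spanned chromosome 4, 5774780 to 5776170 (TAIR9, counted from 1), with a score of 302.46, which was rank 14 of the 2945 peaks. The score is the peak caller's own and grows with the statistical support for a peak. The median over all peaks was 72.83, and the lowest was 50.01. The summit, at 5775171, lay 39 bp outside the end of the gene with the lower coordinate, and 961 of the 1391 bp of the peak lay inside the gene. The gene table gives no strand, so this end cannot be called a start or a stop.

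A second, weaker peak lay over the opposite end of GRF1. It spanned 5776890 to 5778247, with a score of 63.54 (rank 1923). Its summit was inside the gene, 351 bp from the higher-coordinate end, and 267 bp from the neighbour TL29 (AT4G09010), which encodes a protein of the thylakoid lumen. The score of the main peak was 4.76 times that of the second, while their summits were 34 and 28 fragments high. The peaks were 719 bp apart and together covered 1553 of the 2272 bp of the gene, or 68.4%. A further peak on the other side, at 5771687 to 5773146 with a score of 118.79, had its summit 3043 bp from GRF1, inside the pseudogene AT4G08995, and is outside the limit of 1000 bp.

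In height the main GRF1 peak did not stand at the same place as in score. Its 34 fragments were rank 724 of 2945, against a median of 27 and quartiles of 22 and 34. Of the 85 peaks with summits of exactly that height it had the highest score, and their median score was 89.96. The peaks next to it in score had taller summits. Those were a peak in AT1G35220 with a score of 307.6 and 61 fragments and one in GSTF10 (AT2G30870), a glutathione transferase gene, with 305.53 and 46 fragments. Just below it in score came a peak 2247 bp from AT3G29255, with 301.95 and 62 fragments, and one in AGP10 (AT4G09030), an arabinogalactan protein gene, with 301.36 and 52 fragments. Score is the only likeness on which these genes were picked.

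**Figure D2:**
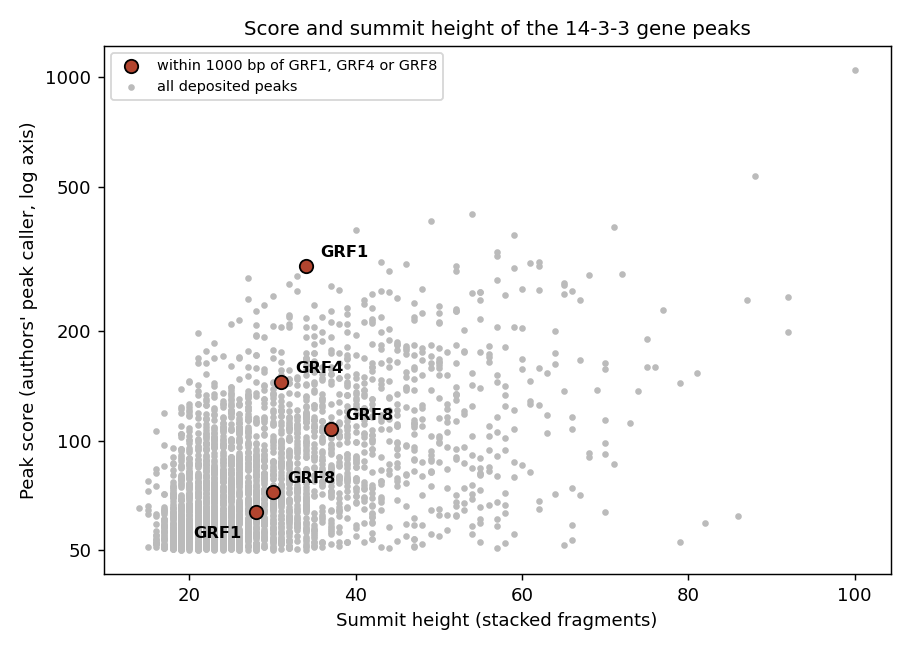
Peak score (y axis, log scale) against summit height in stacked fragments (x axis) for all 2945 deposited peaks in grey and for the 5 peaks with a summit within 1000 bp of GRF1, GRF4 or GRF8 in red. The main GRF1 peak has a score of 302.46 at 34 fragments, and the other red points lie between 63.54 and 145.14 in score.

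GRF4, the phi isoform and by sequence among the closest relatives of GRF1, had 1 peak, at chromosome 1, 12866833 to 12867824. Its score was 145.14 (rank 263) and its summit 31 fragments high (rank 977). The summit at 12867285 was inside the gene, 204 bp from the lower-coordinate end, and the peak covered 744 bp of the gene, or 41.1% of it. The next nearest protein-coding gene, AT1G35150, was 1047 bp from the summit. Among the 91 peaks with summits of 31 fragments, the GRF4 peak was seventh in score, against a median of 78.35. The summits of GRF1 and GRF4 thus lay at opposite sides of the lower-coordinate end, 39 bp outside and 204 bp inside.

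GRF2 (AT1G78300, omega), the remaining member of that subgroup and an inhibitor of nitrate reductase, had no summit within 1000 bp. Its nearest summit was 8682 bp away, inside AT1G78280. That peak had a score of 116.31, and its 66 fragments made it one of the taller summits of the list, at rank 33.

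GRF8, the kappa isoform, binds the salt tolerance kinase SOS2 together with its close relative lambda. Its main peak spanned chromosome 5, 26150023 to 26150816, with a score of 107.77 (rank 610) and a summit of 37 fragments (rank 560). The summit at 26150523 was inside the gene, 70 bp from the higher-coordinate end, and 571 bp of the gene lay under the peak. A second peak, at 26151058 to 26151721, had a score of 72.31 and a summit of 30 fragments. That summit was 715 bp from GRF8 but only 25 bp from the neighbour AT5G65440, and the peak did not touch GRF8. It was the only one of the 5 summits that lay nearer to another gene than to the family member. The 2 peaks were separated by 241 bp and their summits by 785 bp. GRF6 (AT5G10450, lambda) had no summit nearer than 9853 bp, where AT5G10420 held one with a score of 82.18.

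None of the 3 genes of the psi, upsilon and nu subgroup had a summit within 1000 bp, against 12.7% of all protein-coding genes. At that share, so few genes cannot set one subgroup apart from another. GRF3 (AT5G38480, psi), known for its induction by cold, came nearest. A summit lay 2438 bp away, inside the neighbour RAD23D (AT5G38470), which encodes a protein that carries ubiquitinated substrates. That peak was weak, with a score of 53.27 and 18 fragments. GRF7 (AT3G02520, nu) was 40029 bp from its nearest summit, which scored 52.46. GRF5 (AT5G16050, upsilon), which takes part in the timing of flowering, was the farthest of the family, 65414 bp from a summit in ELF9 (AT5G16260) with a score of 82.8.

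The epsilon group members GRF9 and GRF10 also had none, again against 12.7% of all protein-coding genes, which sets no group apart. GRF9 (AT2G42590, mu), which like upsilon interacts with the flowering regulator CO, was 23312 bp from a summit in AT2G42520 that scored 53.17. GRF10 (AT1G22300, epsilon) was 2988 bp from a summit with a score of 93.58 and 33 fragments. That summit lay inside a tRNA gene, AT1G22320, and 559 bp from MBD8 (AT1G22310), a gene of the methyl-CpG-binding domain family. Around the limit of 1000 bp, the outermost summit counted was 715 bp from its gene (GRF8) and the next gene out had its summit at 2438 bp (GRF3). Over the 10 genes the median distance to the nearest summit was 5835 bp. Over all protein-coding genes it was 13766 bp, with quartiles of 4194 and 34276 bp, between which the family's median lies. The family was selected on summit positions, so its median is a description only.

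**Figure D3:**
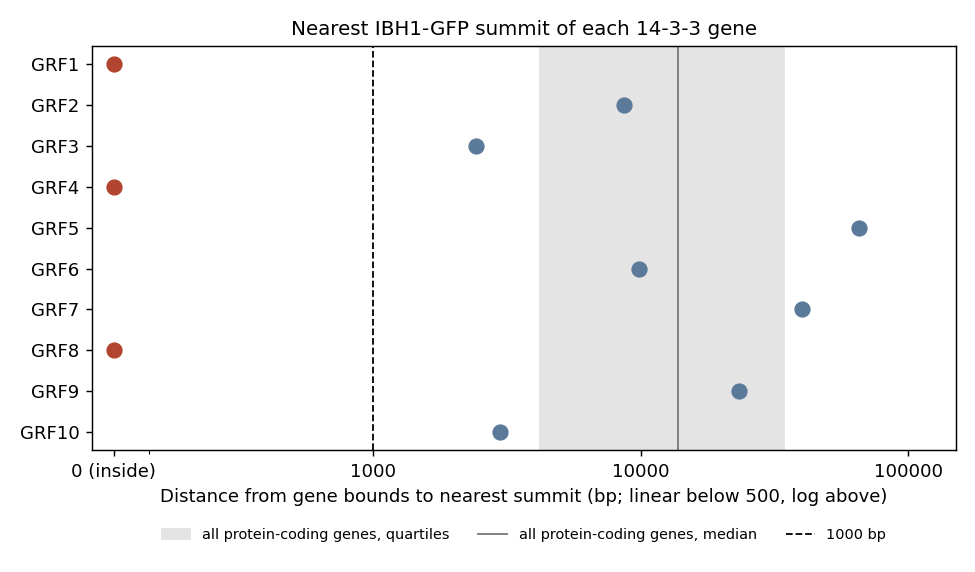
Distance in bp from the bounds of each 14-3-3 gene to the nearest summit (x axis, linear below 500 bp and log above). Red points are the 3 genes with a summit inside, blue points the other 7, at 2438 to 65414 bp, and the grey band spans the quartiles of all protein-coding genes (4194 to 34276 bp) around their median.

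The 3 further 14-3-3 genes examined, GRF11 (AT1G34760, omicron), GRF12 (AT1G26480) and GRF13 (AT1G78220), all of the epsilon group, had no summit within 1000 bp. Their nearest summits were at 3021, 4387 and 23582 bp. With 12.7% of all protein-coding genes having a summit within 1000 bp, none of 3 does not set these genes apart. The list stops at the authors' score threshold, and sequencing depth is unknown here, so a gene with no listed summit may still be occupied below that threshold.

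The number of summits in the surroundings ranged from 2 to 19. Within 100 kb of the midpoint of the gene, GRF1 had 19 summits, GRF3 had 12, GRF10 had 10 and GRF4 had 9. The other 6 members had 2 or 3, GRF8 among them with 3, of which 2 were its own. Over all protein-coding genes the median was 4 (quartiles 2 and 7). The GRF1 neighbourhood held 17 other summits with a median score of 78.89, and none exceeded the score of GRF1. The closest to it in score, 301.36, was the peak in AGP10, 15 kb away. Around GRF4, on the other hand, 2 of the 8 other peaks scored above its own. One lay in PHI-1 (AT1G35140), a phosphate-induced gene of the EXORDIUM family, 14.8 kb away with a score of 378.88, and the other in AT1G35220, 40 kb away with 307.6. GRF3 had the small subunit gene of Rubisco RBCS3B (AT5G38410), with a score of 223.84, 31.2 kb away.

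**Figure D4:**
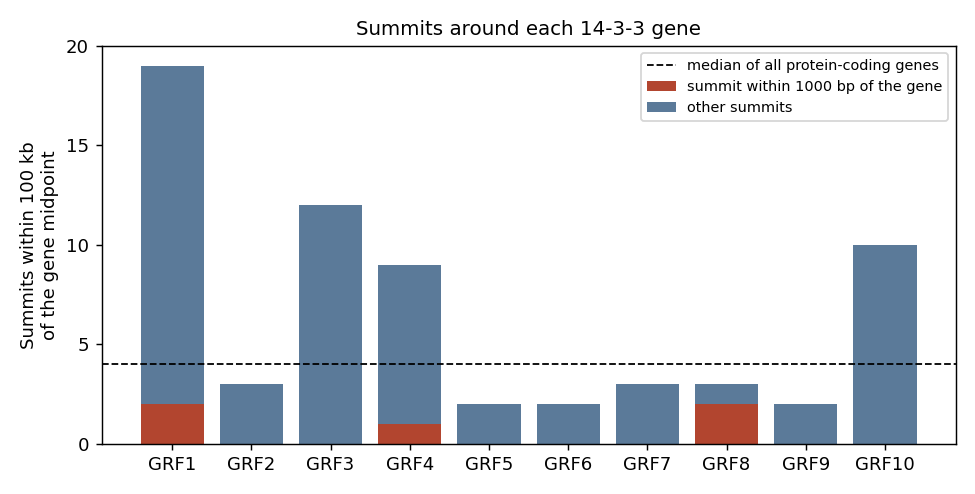
Number of summits within 100 kb of the midpoint of each 14-3-3 gene (y axis). The red part of a bar counts summits within 1000 bp of the gene, the blue part all others, and the dashed line is the median of all protein-coding genes, 4. GRF1, GRF3, GRF4 and GRF10 stand above the line at 19, 12, 9 and 10.

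Distance from gene-poor regions, mostly those around the centromeres, was also read for each member. A stretch of 500000 bp was called gene-poor where it held fewer than 60 protein-coding genes. Of the 5322 genes within 2 Mb of one, 21.9% counted as having a summit under the limit of 1000 bp, against 10.5% of the 22122 genes farther away. GRF4, GRF1 and GRF3 lay at 132, 276 and 1410 kb from such a window, and 2 of these 3 had a summit. The other 7 members were farther than 2 Mb away, and GRF8 was the one of them with a summit. The part of this position in the GRF1 and GRF4 peaks was not tested.

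Client proteins of 14-3-3 were read in the same way, in 5 lists of 42 genes in all. A summit lay inside or within 1000 bp of 10 of them (23.8%), against 12.7% of all protein-coding genes. Client genes are long. Of the 17659 genes whose bounds span as much as theirs 14.4% had a summit, and of the genes that span at least their median 16.1%. Inside the gene bounds alone the count was 4 (9.52%), near the 7.05% of all genes, and with scores no lower than the median it was 3 (7.14%), near the 6.7% of all genes. Each list had 2 genes within 1000 bp. None of the 10 reached a score of 100, with best scores from 53.17 to 81.51. The 3 family members had best scores from 107.77 to 302.46. The family was selected on the peak scores, so these values do not compare it with its clients. A best score of 100 or more was found at 927 of the 27444 protein-coding genes (3.38%), while 3499 had a summit at any score. Over those 3499 genes the median best score was 74.43.

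Among the 11 plasma membrane proton pumps, which 14-3-3 proteins activate by binding their phosphorylated tail, AHA1 (AT2G18960) held 2 summits, with scores of 58.16 and 53.17. Its bounds span 6109 bp, and 1.04% of all protein-coding genes had 2 or more summits within 1000 bp. AHA11 (AT5G62670) had a summit at 461 bp with a score of 53.17. The annotated gene nearest to that summit was a long noncoding RNA gene, AT5G09085. These 2 pumps were 18.2% of the list, against 12.7% of all protein-coding genes. AHA2 (AT4G30190) was 44147 bp from its nearest summit. Of the 7 brassinosteroid clients and homologues, only BEH3 (AT4G18890) and BEH4 (AT1G78700), relatives of BZR1, had a summit, at 330 and 292 bp with scores of 69.52 and 53.54. That was 28.6% of the list, against 12.7% of all protein-coding genes. The BEH4 summit was also 395 bp from AT1G78690. BZR1 (AT1G75080), BES1 (AT1G19350) and BKI1 (AT5G42750), an inhibitor of the brassinosteroid receptor, were 51672, 7013 and 5387 bp from their nearest summits.

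Of the 8 metabolic enzymes, NIA2 (AT1G37130), a nitrate reductase that 14-3-3 proteins inactivate, held a summit 38 fragments high in a peak that scored 78.47. That peak was 3469 bp wide, the fourth widest of the list, and covered 3308 bp of the gene. CINV1 (AT1G35580), a cytosolic invertase, had a summit at 65 bp with a score of 54.75. The other nitrate reductase gene, NIA1 (AT1G77760), was 17778 bp from one. Of the 7 light and flowering genes, the blue light receptor PHOT1 (AT3G45780) held 2 summits, with scores of 71.38 and 52.28. Its bounds span 7490 bp, and 1.04% of all protein-coding genes had 2 or more summits within 1000 bp. CO (AT5G15840) had a summit at 324 bp with a score of 81.51. The CO summit lay over a long noncoding RNA gene, AT5G02465, and was 473 bp from bZIP3 (AT5G15830). PHOT2 (AT5G58140) was 8499 bp from its nearest summit. Of the 9 ion transport and stress genes, SOS2 (AT5G35410) held a summit with a score of 60.91. ABI5 (AT2G36270), a bZIP factor of abscisic acid responses, had one at 58 bp with a score of 75.25. The ABI5 summit was also 804 bp from AT2G36290. KAT1 (AT5G46240), a potassium channel of guard cells, was 26742 bp away from a summit. In the order given, the shares of these lists with a summit were 25%, 28.6% and 22.2%, against 12.7% of all protein-coding genes.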

How the data were processed

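ChIP DNA of 3 experiments was pooled per group and amplified with 18 PCR cycles, per the labels' protocols. The submitters' processing notes list CASAVA 1.8.2, Bowtie, MACS and the build TAIR9. Settings of these tools, and any use of the GFP library as background, are not stated in the sources. The authors deposited 1 list of peaks with a score, which MACS writes as 10 times the −log10 of its p-value, and 1 list of summits with a signal, the whole number of fragments stacked there. They rank peaks within this list only. Depth is unknown.

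Genes were named from a RefSeq table of the assembly TAIR10.1, without strand or exons, and its bounds serve only to place peaks. As a check of the builds, 67.5% of 2944 nuclear summits lay inside protein-coding genes, against 61.7% and 61.4% after shifts of 1000 bp either way. Distances run from summit to gene bounds (Python 3.11.15, pandas 2.3.3), tested on simulated data. With 1 library per group no test was run. The members and lists were chosen with earlier results of these data known. All family members were named, the peaks next to GRF1 in score, and each client with a summit plus up to 3 others per list. Of 57 gene codes, 2 without a matching symbol were dropped. These were a further 14-3-3 code, GRF14 (AT1G22290), and CRPK1 (AT1G16670) of the ion transport and stress list. The 10 family codes were kept whatever this check gave. The planned descriptions of promoter motifs and proteins were not made.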

Additional observations from a re-analysis of the deposited data

How the results depend on the processing

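GRF1, GRF4 and GRF8 were the family members with a summit under each of 9 alternatives run: inside the gene bounds only, within 500 or 2000 bp, with scores from 100 up, with scores no lower than the median, with peak midpoints, with any overlap of the peak, with the nearest gene only, and with peaks within 500 bp merged. Among all protein-coding genes the share with a summit ran, over the same settings, from 3.38% with scores from 100 up to 16.7% within 2000 bp. Each of these family members has a summit inside its bounds and a best score above 100, so several settings keep it by construction. Inside the bounds only, GRF1 was kept by its second peak, with a score of 63.54. Within 5000 bp there were 5 genes, as GRF3 and GRF10 were added by the wider window, against 27.7% of all genes. The main GRF1 peak was rank 14 by score and rank 724 by summit height, and the cause was not tested. Using all annotated genes left 1 of the 5 family summits nearest to another gene. The client genes with a summit numbered 10 of 42. Inside the gene bounds only there were 4 (9.52%, against 7.05% of all genes), and with scores no lower than the median 3 (7.14%, against 6.7%), both near the share of all genes. Scores from 100 up left 0 (against 3.38%), and a window of 5000 bp gave 17 (40.5%, against 27.7%). These settings change the window or remove peaks by construction. The other settings gave 10 to 12 client genes, against 9.08% to 16.7% of all genes. No promoter window was shortened, as motifs were not searched. No paired analysis was possible because only 1 library represents each group. Unknown depth limits what a gene without a listed summit shows.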
